A study of Rattus norvegicus with 8 samples.

Results

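Genes of blood coagulation and of fibrinolysis, the dissolution of clots, were examined in the outflow veins of rat arteriovenous fistulas (AVF), where thrombosis can close the access. A fixed list of names supplied 9 of the 32623 genes in the count files, and each name matched a single gene. The members were the plasminogen activators Plat and Plau, the urokinase receptor Plaur, the protease inhibitor Serpine2, the clotting initiator F3, the fibrin crosslinker F13a1, the initiator's inhibitor Tfpi and the endothelial anticoagulant receptors Thbd and Procr. The rule is a list of names, with no threshold on a measured value.

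The 8 animals were Sprague Dawley rats whose epigastric vein had been joined to the femoral artery, and every vein was wrapped in a bilayer nanofiber scaffold of PLA and PLGA at surgery. In 4 rats (3 females and 1 male) the scaffold released BAPN, β-aminopropionitrile, which blocks lysyl oxidases, the enzymes that crosslink collagen and elastin fibers. In the other 4 (2 females and 2 males) it carried vehicle only, and all veins were taken 21 days after surgery. The ages of the animals were not given in the sources used here. Each library came from the wall of 1 vein with all of its cell types, so that fewer cells of a type and less RNA per cell cannot be told apart. Total counts lay between 45039451 and 52241007 with BAPN and between 19548203 and 22442050 with vehicle. Even the smallest BAPN library held 2.01 times the counts of the largest vehicle library, and sequencing depth and treatment cannot be told apart.

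Clotting starts when tissue factor, the product of F3, binds factor VII in a vessel wall, and tissue factor pathway inhibitor blocks that complex. Thrombin then turns fibrinogen into fibrin, which factor XIII crosslinks. On healthy endothelium thrombomodulin and the endothelial protein C receptor turn thrombin toward activating protein C, an anticoagulant. Fibrin is removed by plasmin, which tissue-type and urokinase-type plasminogen activators release from plasminogen under the control of serpins. Urokinase bound to its receptor also acts in the turnover of the vessel wall.

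Thbd and F3 were lower in BAPN-treated veins, and the other 7 members did not pass the test. Thbd, which encodes thrombomodulin, had a mean of 62.0 ± 10.9 CPM in BAPN libraries and of 120 ± 33.6 CPM in vehicle libraries (± SD, n = 4 rats). F3, which encodes tissue factor, averaged 91.3 ± 14.0 CPM under BAPN scaffolds against 167 ± 63.5 CPM under vehicle scaffolds. CPM is the count per 1000000 reads of a library after TMM scaling. All 9 members reached the base mean of 100 that the test required, the mean count after scaling over the 8 libraries. In edgeR's quasi-likelihood test 2 of the 9 were called at a false discovery rate (FDR) below 0.05 over all 11682 tested genes, both lower. Across all tested genes 16.8% were called, 7.5% higher and 9.25% lower (876 and 1081 genes, against 504 and 1161 when libraries were scaled by total counts only). For the same 2 members every BAPN library lay below every vehicle library, as was so for 11.9% of tested genes, while 12.7% were separated the other way and 24.7% in either direction. The median log2 fold change of the 9 members was 0.09, against 0.02 over all tested genes. DESeq2 called 3 of the 9, where it called 27.4% of all genes.

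**Figure D1:**
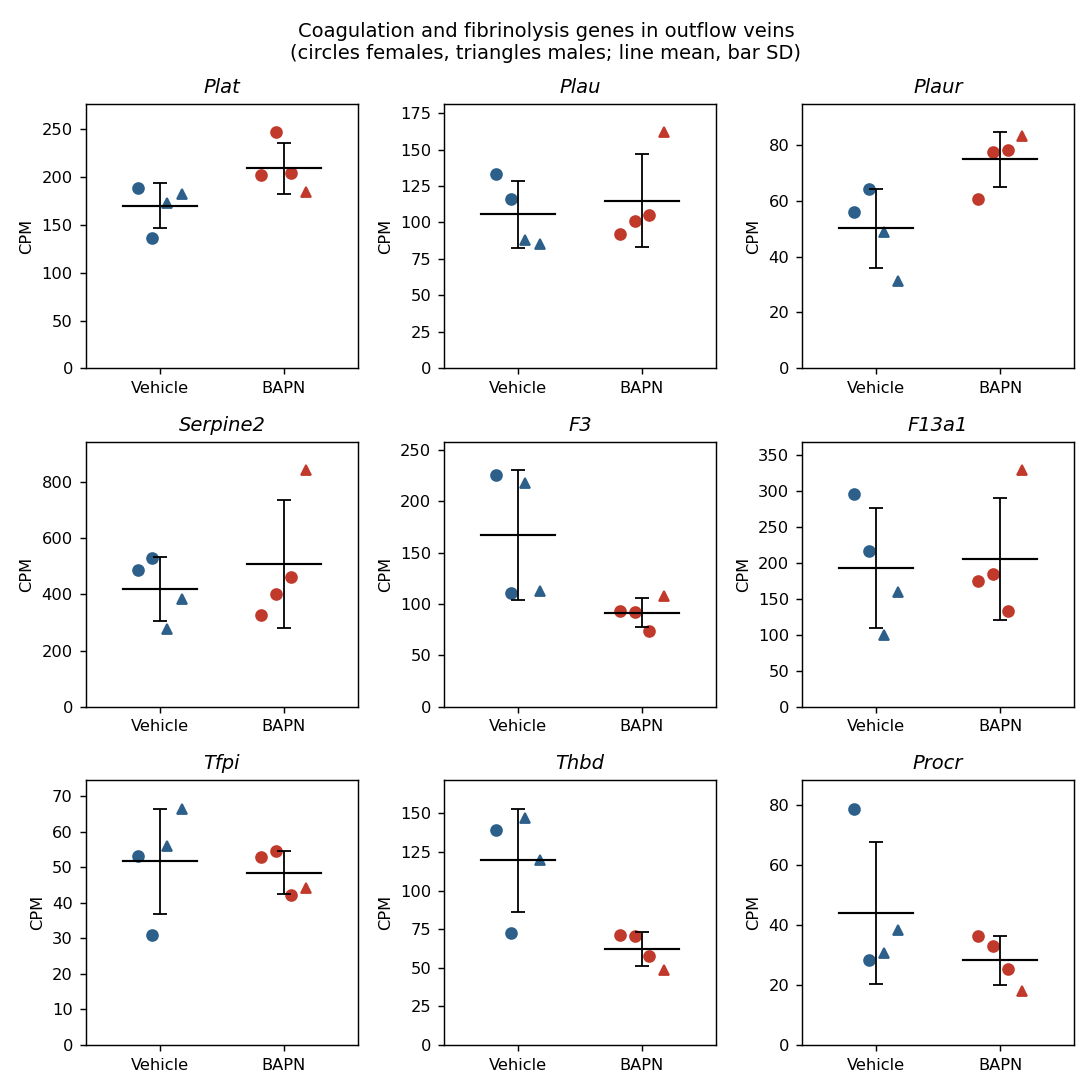
Normalized read counts (CPM, linear axes from 0) of the 9 genes in each library, by group. Circles are females, triangles are males, lines are means and bars are SD over 4 rats. The 4 BAPN libraries lie between 48.5 and 71.1 CPM for Thbd and between 73.3 and 108 CPM for F3, below all 4 vehicle libraries in both panels. The groups overlap in the other 7 panels.

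Among the anticoagulant members, Thbd (ENSRNOG00000004687) was at 71.1, 70.7, 57.7 and 48.5 CPM in BAPN 1 to 4 and at 139, 72.2, 147 and 120 CPM in Vehicle 1 to 4. The groups did not overlap but nearly met, between Vehicle 2 and BAPN 1. BAPN differed from vehicle by a log2 fold change of -0.95 ± 0.23 (± standard error here and in what follows; FDR 0.0248 by edgeR, 0.000988 by DESeq2), so that the vehicle level was 1.93 times the BAPN level. An exact two-sided permutation test over the 70 arrangements of 4 rats against 4 gave p = 0.0286, the smallest it can give. Leaving out BAPN 3 (FDR 0.0691), BAPN 4 (0.0595), Vehicle 1 (0.0704) or Vehicle 3 (0.056) ended the call, with log2 fold changes from -1.13 to -0.83 over all 8 omissions of 1 rat. It was also lost with sex as a covariate (-0.94, FDR 0.0568) and among females alone (-0.67, FDR 0.191).

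Procr (ENSRNOG00000019330), the endothelial protein C receptor that presents protein C to the thrombin-thrombomodulin complex, was at 36.2, 33.1, 25.5 and 18.1 CPM in BAPN 1 to 4. It was at 78.9, 28.4, 30.7 and 38.3 CPM in Vehicle 1 to 4. Vehicle 1 stood far above the BAPN range, Vehicle 4 slightly above it, and the other vehicle libraries inside it. Its log2 fold change of -0.64 ± 0.33 did not pass (edgeR FDR 0.207), and without Vehicle 1 it was -0.20.

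Tfpi (ENSRNOG00000005039), the inhibitor of the tissue factor complex, was at 52.9, 54.5, 42.3 and 44.3 CPM in BAPN 1 to 4 and at 53.1, 31.1, 56.1 and 66.5 CPM in Vehicle 1 to 4. The BAPN libraries lay inside the vehicle range. At -0.09 ± 0.21 on the log2 scale the difference did not pass (edgeR FDR 0.772), and its sign turned without Vehicle 4 (0.05) and among females alone (0.24).

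On the procoagulant side, F3 (ENSRNOG00000011800) was at 92.7, 91.9, 73.3 and 108 CPM in BAPN 1 to 4 and at 225, 111, 218 and 113 CPM in Vehicle 1 to 4. The vehicle libraries fell into a high and a low pair, each with 1 female and 1 male, and the low pair was just above the BAPN male. The difference was -0.87 ± 0.26 on the log2 scale (FDR 0.0482 by edgeR, 0.00859 by DESeq2), and the vehicle level was 1.83 times the BAPN level. The exact two-sided permutation test gave p = 0.0286. The F3 call was close to the threshold. It was kept without Vehicle 2 (FDR 0.026) or Vehicle 4 (FDR 0.0391) and lost without any of the other 6 rats (FDR 0.0701 to 0.125), with log2 fold changes from -1.02 to -0.69. It was also lost with sex as a covariate (FDR 0.0888), with limma-voom (FDR 0.0664), with either other filter on low counts (FDR 0.056 and 0.0602) and with all libraries thinned to the smallest total (FDR 0.0518). In these 5 fits the log2 fold change was -0.86 to -0.80.

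F13a1 (ENSRNOG00000015957), the catalytic A subunit of factor XIII, was at 175, 185, 133 and 329 CPM in BAPN 1 to 4 and at 296, 217, 99.4 and 160 CPM in Vehicle 1 to 4. The groups spanned almost the same range, with a highest-to-lowest ratio of 2.47 among BAPN and 2.98 among vehicle libraries. On the log2 scale the difference was 0.09 ± 0.36 (edgeR FDR 0.871). It was -0.64 among females alone (FDR 0.137), where the BAPN rats were at 133 to 185 CPM and the vehicle rats at 217 and 296 CPM.

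Among the fibrinolytic members, Plaur (ENSRNOG00000037931), the cell-surface receptor of urokinase, was at 60.6, 77.4, 78.0 and 83.1 CPM in BAPN 1 to 4. It was at 56.0, 64.2, 48.9 and 31.3 CPM in Vehicle 1 to 4, and only Vehicle 2 and BAPN 1 kept the groups from separating. Its log2 fold change was 0.58 ± 0.21. The FDR was 0.0782 by edgeR and 0.048 by DESeq2, and edgeR called Plaur without Vehicle 2 (log2 fold change 0.72, FDR 0.0433). No other alternative gave a call, and the log2 fold change was 0.41 without Vehicle 4 (FDR 0.0996), 0.51 without BAPN 4 (FDR 0.161) and 0.26 among females alone (FDR 0.353).

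Promoter windows of 300 bases, from 250 before to 50 after the gene start in RefSeq (GRCr8), were matched by symbol for 6 of the 9 members, with 2 windows for Tfpi and thus 7 in all. F3, Thbd and Plat had no entry under these symbols in the set of windows used. Motifs were searched by their letters on both strands. The AP-1 motif TGANTCA was in 2 of the 7 windows (those of Plaur and Procr), against 7.33% of all 33469 windows. The GC box GGGCGG was in 4 of the 7 (33.1% of all), CACCC in 5 (54.9%), GAGACC in 2 (16.5%) and TATAAA in none (14.2%). The windows of Plaur and Procr are shown as the members that hold the AP-1 letters, and that of Anxa2, the plasminogen-binding annexin among the other genes of the pathway, was chosen after its call was seen. Of the 9 called pathway genes 4 had an entry, and the AP-1 letters were in the windows of Anxa2 and Tfpi2 and not in those of F10 and Hs3st1. Capitals mark the matches to the 5 motifs, and of these 3 only the Anxa2 window has matches that overlap. The windows lie at chr1:89181113-89181412 on the + strand (Plaur), chr3:164714477-164714776 on the + strand (Procr) and chr8:78986002-78986301 on the + strand (Anxa2).
Plaur: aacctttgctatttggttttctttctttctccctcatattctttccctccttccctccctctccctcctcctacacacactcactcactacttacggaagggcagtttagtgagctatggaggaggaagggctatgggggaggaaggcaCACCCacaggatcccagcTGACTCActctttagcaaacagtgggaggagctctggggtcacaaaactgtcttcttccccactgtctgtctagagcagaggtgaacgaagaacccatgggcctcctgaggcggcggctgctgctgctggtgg
Procr: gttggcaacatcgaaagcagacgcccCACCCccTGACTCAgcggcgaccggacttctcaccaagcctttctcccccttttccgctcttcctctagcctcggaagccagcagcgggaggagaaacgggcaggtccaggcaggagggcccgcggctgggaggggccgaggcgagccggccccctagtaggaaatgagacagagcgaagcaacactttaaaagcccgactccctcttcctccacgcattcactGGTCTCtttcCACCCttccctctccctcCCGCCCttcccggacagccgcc
Anxa2: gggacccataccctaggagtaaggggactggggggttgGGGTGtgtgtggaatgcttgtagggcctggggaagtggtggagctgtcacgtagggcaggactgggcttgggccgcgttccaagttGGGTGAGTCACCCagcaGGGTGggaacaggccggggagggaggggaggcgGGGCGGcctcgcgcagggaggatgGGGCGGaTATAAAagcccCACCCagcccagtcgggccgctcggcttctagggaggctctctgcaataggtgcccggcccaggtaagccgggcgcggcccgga
Such a match describes the letters of the window only.

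Plat (ENSRNOG00000019018), tissue-type plasminogen activator, which endothelium releases, was at 202, 247, 204 and 184 CPM in BAPN 1 to 4 and at 189, 136, 173 and 182 CPM in Vehicle 1 to 4. The BAPN libraries were on the higher side, and BAPN 4 lay inside the vehicle range. The log2 fold change of 0.30 ± 0.14 did not pass (edgeR FDR 0.165, exact two-sided permutation p = 0.0571).

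Plau (ENSRNOG00000010516), urokinase-type plasminogen activator, was at 91.8, 101, 105 and 162 CPM in BAPN 1 to 4 and at 133, 116, 88.0 and 85.3 CPM in Vehicle 1 to 4. The groups overlapped throughout, with a log2 fold change of 0.12 ± 0.21 (edgeR FDR 0.695). Serpine2 (ENSRNOG00000015461), protease nexin-1, which inhibits thrombin, urokinase and tissue-type activator, was at 327, 402, 463 and 843 CPM in BAPN 1 to 4 and at 488, 530, 277 and 383 CPM in Vehicle 1 to 4. The corresponding value for Serpine2 was 0.28 ± 0.30 (edgeR FDR 0.544). Among females alone both values were negative, -0.32 for Plau and -0.36 for Serpine2.

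BAPN 4, the male of its group, was the highest BAPN library for Plau, Plaur, Serpine2, F3 and F13a1 and the lowest for Plat, Thbd and Procr. Since it is the only BAPN male, its sex and the animal cannot be told apart. Over the 8 libraries, Plau and Serpine2 had the most similar profiles of any pair of members, with a root mean square distance of 0.22 between their log2 CPM after each was centered on its mean. They were followed by Plat and Tfpi (0.265). Compared with 11021 named genes by the same measure, Thbd was nearest to Hspa12b (0.0865), a gene known for its expression in endothelium, with a log2 fold change of -0.93 (FDR 0.0248 in edgeR). The nearest gene was at 0.0712 for Plat (Tsfm), 0.0983 for Plaur (Pkib), 0.101 for Tfpi (Fuca2), 0.108 for Plau (Bhlhe40) and 0.146 for Serpine2 (Ulk4). For Procr (Shroom3, 0.211), F3 (Tcaim, 0.229) and F13a1 (Tiparp, 0.238) the nearest profile was farther away.

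Thbd and Procr are expressed mainly by endothelium, and endothelial markers were examined in the same libraries. Of 10 endothelial marker genes, 9 were found in the files and 8 were tested. All 8 had negative log2 fold changes (median -0.68), and edgeR called 2 of them lower, Tek (-1.24, FDR 0.0089) and Esam (-0.94, FDR 0.0299), where 9.25% of all tested genes were called lower. The other 6 did not pass and overlapped between the groups, and DESeq2 called 4 of the 8, against 27.4% of all genes. Pecam1 was not used here, and Robo4 was almost without reads. The summed level of the 9 markers was 461 to 617 CPM with BAPN and 626 to 1059 CPM with vehicle, without overlap. Relative to that sum in the same library, a ratio chosen after the data were seen and given without a test, the difference between the groups was -0.25 on the log2 scale for Thbd, -0.13 for F3 and 0.10 for Procr. F3 was set against the same sum without being taken as an endothelial gene, and no ratio to markers of another cell type was formed. Because the sum itself differed, a gene with the same CPM in both groups would stand at 0.67 on this scale. The groups overlapped in these 3 ratios, as they did for 60.5% of all tested genes on this scale. For the other 6 members the value was 0.62 (Tfpi) to 1.28 (Plaur), with every BAPN library above every vehicle library for Plat (0.97) and Tfpi, as was so for 38.2% of all tested genes on this scale.

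**Figure D2:**
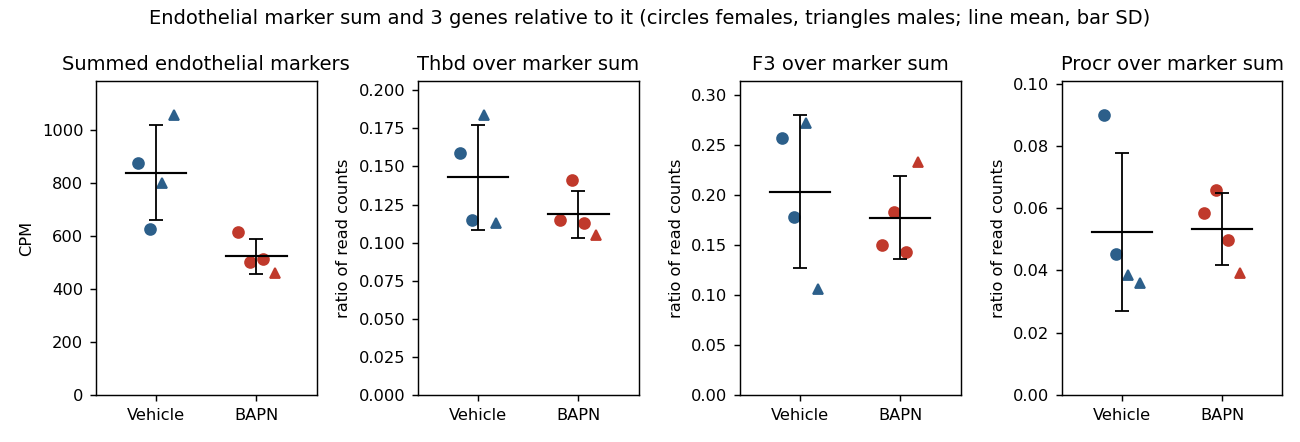
Summed CPM of 9 endothelial marker genes (left) and read counts of Thbd, F3 and Procr divided by the summed marker counts of the same library. Circles are females, triangles are males, lines are means and bars are SD over 4 rats. The marker sums of the groups do not overlap (461 to 617 CPM with BAPN, 626 to 1059 CPM with vehicle). All 3 ratios overlap, as do those of 60.5% of all tested genes.

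For Thbd these ratios were 0.115, 0.141, 0.113 and 0.105 among the BAPN libraries and 0.159, 0.115, 0.184 and 0.113 among the vehicle libraries, in order of their numbers. Of 8 smooth muscle markers edgeR called 5 lower, again against 9.25% of all genes, while Acta2 (FDR 0.26), Tagln (FDR 0.217) and Myocd (FDR 0.14) did not pass. Their median log2 fold change was -1.12, and their sums overlapped (1662 to 4225 CPM with BAPN, 3218 to 5977 CPM with vehicle). Macrophage markers, of a cell type known to express F13a1 and Plaur, had a median log2 fold change of 0.27 over 8 tested genes, with 0 called by edgeR, 0 by DESeq2 and 0 at an unadjusted edgeR p below 0.05. Marco was at 0 in every library. Their sums were 3400 to 4351 CPM with BAPN and 2459 to 3694 CPM with vehicle. Fibroblast markers had sums of 23378 to 36601 CPM with BAPN and 28512 to 94753 CPM with vehicle. Of these 7 markers edgeR called 0 (16.8% of all genes) and DESeq2 4 (27.4%), and 4 had an unadjusted edgeR p below 0.05. Their median log2 fold change was -0.64, and 6 of the 7 values were negative, among them those 4. Of 5 tested adipocyte markers, with a median log2 fold change of -1.61, 4 had an unadjusted edgeR p below 0.05. Among these 5 markers edgeR called 1 lower (9.25% of all genes) and DESeq2 called 4 (27.4%). Their sums (1063 to 2930 CPM with BAPN, 438 to 1709 CPM with vehicle) were mostly Fabp4, which was at 1014 to 2904 and 413 to 1572 CPM and had the only positive log2 fold change (0.70, FDR 0.269). Neutrophil (3 tested), hepatocyte (1), red cell (2) and skeletal muscle markers (2) had 0 called by edgeR, with 1 skeletal muscle gene called by DESeq2 and 1 at an unadjusted p below 0.05. Their sums overlapped between the groups. The share of all tested genes at an unadjusted p below 0.05 is not given here. The part of these cell types in the differences was not tested.

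RNA levels of members that act on each other were compared by ratios of counts within a library. Such ratios need no scaling between libraries, and gene length cancels when libraries are compared. The proteins were not measured here. The ratio of F3 to Tfpi, initiator to inhibitor, was 1.75, 1.69, 1.73 and 2.43 in the BAPN libraries, against 4.24, 3.57, 3.89 and 1.69 in the vehicle libraries, each in order of number. Vehicle 4 lay with the BAPN libraries, and the other 3 vehicle libraries were above all of them. The difference of the group means was -0.75 on the log2 scale. The ratio of Plau to its receptor Plaur was 1.31 to 1.95 with BAPN and 1.80 to 2.73 with vehicle, a difference of -0.50, and only BAPN 4 reached the vehicle range.

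Against the inhibitor Serpine2 both activators showed wide overlap. Plat over Serpine2 was 0.219 to 0.617 with BAPN and 0.256 to 0.623 with vehicle. Plau over Serpine2 was 0.192 to 0.280 with BAPN and 0.218 to 0.317 with vehicle.

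**Figure D3:**
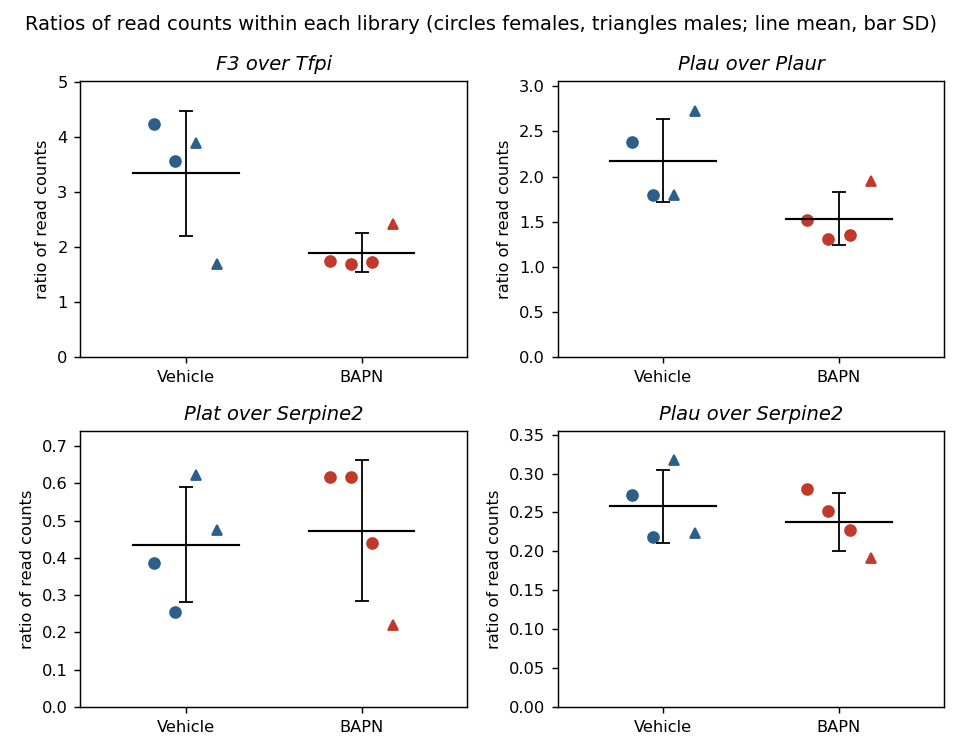
Ratios of read counts of 2 genes within each library (linear axes from 0), by group. Circles are females, triangles are males, lines are means and bars are SD over 4 rats. For F3 over Tfpi, 3 vehicle libraries lie at 3.57 to 4.24 and Vehicle 4 at 1.69, among the BAPN libraries (1.69 to 2.43).

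The other genes of these pathways were taken from 4 lists of 49 names, of which 48 were found and 26 were tested. Of the 26, edgeR called 5 higher and 4 lower with BAPN, and their median log2 fold change was -0.09. Over all tested genes 7.5% were called higher and 9.25% lower. DESeq2 called 13 of the 26, against 27.4% of all genes. The groups were separated for 11 of the 26, against 24.7% of all genes, and these were the 9 called genes with Mrc2 (FDR 0.0542) and Mcfd2 (FDR 0.0504), named after their values were seen.

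**Figure D4:**
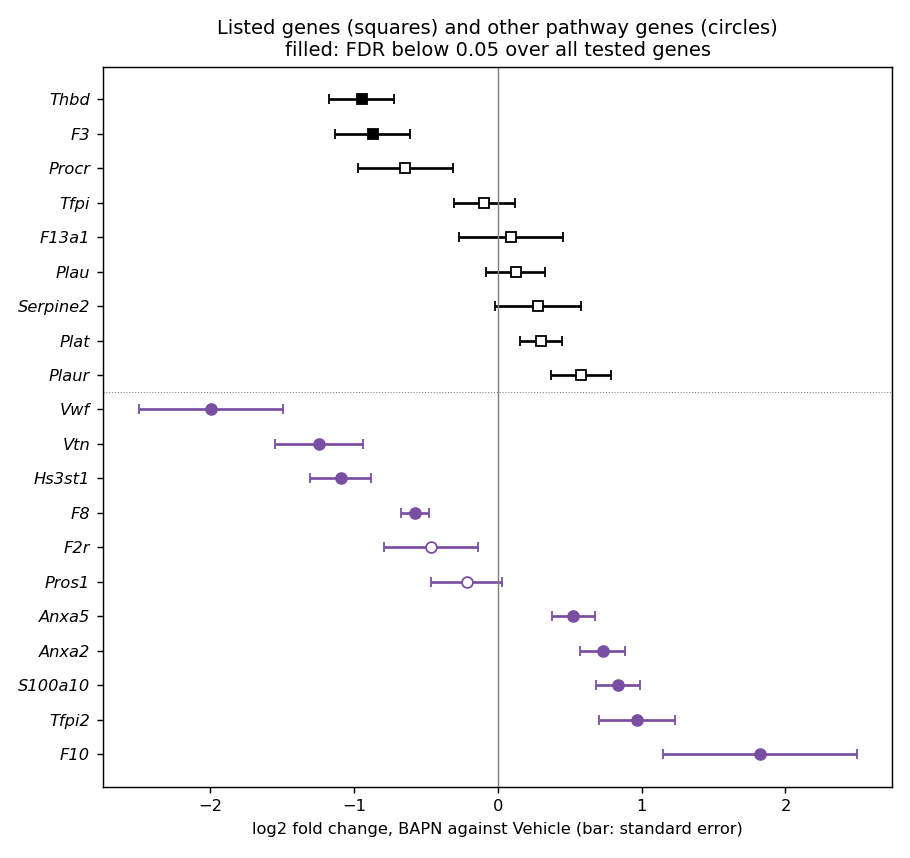
Log2 fold changes of BAPN against vehicle with standard errors for the 9 listed genes (squares) and the other named pathway genes (circles). Filled symbols have an edgeR FDR below 0.05 over all tested genes. Thbd (-0.95) and F3 (-0.87) are filled among the squares, and the circles run from Vwf (-1.99) to F10 (1.82).

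In the list of plasminogen activation, 2 of 7 tested genes rose and 1 fell, against 7.5% and 9.25% of all tested genes. The 2 that rose encode the partners of a surface complex that binds plasminogen and tissue-type activator. Anxa2 (annexin A2) was at 1157, 1203, 1508 and 1419 CPM in BAPN 1 to 4 and at 874, 868, 669 and 779 CPM in Vehicle 1 to 4. BAPN libraries were higher by 0.73 ± 0.16 on the log2 scale (FDR 0.0218). S100a10 (p11) ranged from 545 to 808 CPM among BAPN and from 338 to 420 CPM among vehicle libraries, a difference of 0.83 ± 0.15 on the log2 scale (FDR 0.0149). The Anxa2 call ended when BAPN 3, BAPN 4 or Vehicle 1 was left out (FDR 0.0545, 0.0534 and 0.056), and that of S100a10 without Vehicle 1 only (FDR 0.0527). Vtn, which encodes vitronectin, an adhesive protein of plasma and matrix that the urokinase receptor binds, fell from 25.0 ± 9.83 to 10.5 ± 4.18 CPM (± SD, n = 4 rats), a log2 fold change of -1.24 ± 0.31 with an FDR of 0.0325. When 1 rat was left out the call was kept without BAPN 1 or Vehicle 2 only, and it was also lost with sex as a covariate (FDR 0.0755).

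The plasminogen gene Plg had at most 19 reads in a library, Serpinb2, the gene of another serpin, at most 40 and Serpinf2 (α2-antiplasmin) at most 90, and none of the 3 was tested.

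In the list of clotting factors, 1 of 10 tested genes rose and 2 fell, against 7.5% and 9.25% of all tested genes. F10, the gene of factor X, was at 7.20, 18.2, 11 and 5.07 CPM in BAPN 1 to 4 and at 1.40, 4.99, 1.56 and 3.77 CPM in Vehicle 1 to 4 (log2 fold change 1.82 ± 0.67, FDR 0.0418). BAPN 4 and Vehicle 2 nearly met, and the call was kept without either of these 2 but lost without any other rat (FDR up to 0.102), with sex as a covariate (1.58, FDR 0.099) and with limma-voom (FDR 0.0826). F8, the gene of factor VIII, which endothelium makes, lay between 58.8 and 71.4 CPM in BAPN libraries and between 96.7 and 106 CPM in vehicle libraries. The log2 fold change was -0.58 ± 0.10 (FDR 0.0111), and no omission of a single rat ended the call.

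Vwf, the gene of von Willebrand factor, which carries factor VIII and tethers platelets, was at 102, 81.2, 85.4 and 58.5 CPM in BAPN 1 to 4 and at 768, 269, 106 and 161 CPM in Vehicle 1 to 4. Vehicle 1 was far above the rest and Vehicle 3 was close to BAPN 1. On the log2 scale the difference was -1.99 ± 0.50 (FDR 0.0389), and without Vehicle 1 it was -1.13 (FDR 0.067). The call was also lost with limma-voom (FDR 0.0581) and without any 1 of the 4 BAPN rats (FDR 0.0639 to 0.0966). F2, the prothrombin gene, was at 0 in all 8 libraries, as were F9, F13b and the fibrinogen genes Fga and Fgb, where 3 counts would have been 0.0592 to 0.148 CPM. These factors are made by the liver, and the hepatocyte gene Alb was at 0 to 3.46 CPM. Of the same hepatocyte list, Tf was at 326 to 650 CPM and made up almost all of the summed level.

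In the list of anticoagulants, 2 of 6 tested genes rose and 1 fell, against 7.5% and 9.25% of all tested genes. Tfpi2, a relative of Tfpi that inhibits plasmin and the tissue factor complex, was at 16.8, 17.6, 18.1 and 10.4 CPM in BAPN 1 to 4 and at 9.22, 8.55, 6.82 and 7.55 CPM in Vehicle 1 to 4 (log2 fold change 0.97 ± 0.26, FDR 0.0198). It lost its call without BAPN 3 (FDR 0.0524) or Vehicle 1 (FDR 0.051). Anxa5, annexin A5, which covers procoagulant phospholipid, rose from 645 ± 49.8 to 929 ± 143 CPM (log2 fold change 0.53 ± 0.15, FDR 0.0474), and among the fits without 1 rat it was called without BAPN 1 only (FDR up to 0.114). It was also lost with sex as a covariate (FDR 0.0833), with either other edgeR scaling and with either other filter on low counts (FDR 0.0516 to 0.0703).

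Hs3st1, a sulfotransferase that makes the antithrombin-binding site of heparan sulfate, was at 12.9, 15.0, 11.4 and 10.7 CPM in BAPN 1 to 4 and at 34.8, 24.1, 18.1 and 29.5 CPM in Vehicle 1 to 4. Every BAPN library was below every vehicle library, with a log2 fold change of -1.09 ± 0.21 (FDR 0.0157). No omission of a single rat ended this call either. Pros1 (protein S) averaged 88.0 ± 15.7 CPM (± SD) among BAPN and 102 ± 35.3 CPM among vehicle libraries (log2 fold change -0.22 ± 0.25, FDR 0.539). Of 3 tested receptor genes of thrombin and related proteases edgeR called 0, with 1 at an unadjusted p below 0.05. DESeq2 called 1 of the 3, against 27.4% of all genes. F2r, the main thrombin receptor, averaged 79.1 ± 17.6 and 109 ± 50.8 CPM (± SD; log2 fold change -0.46 ± 0.33, FDR 0.312). It was -0.13 without Vehicle 4 (FDR 0.755) and -0.02 among females alone.

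Of 12 platelet and megakaryocyte markers 3 were tested. Itga2b, the platelet fibrinogen receptor subunit, was at 3.92 to 4.48 CPM with BAPN and 5.22 to 17.2 CPM with vehicle (log2 fold change -1.22, FDR 0.0401), and Pf4 was at 62.5 to 119 and 36.6 to 69.6 CPM (0.63, FDR 0.114). Gp1bb and Gp5 were at 0 in every library, and the summed level of the 12 (71.2 to 131 CPM with BAPN, 49.2 to 101 CPM with vehicle) was mostly Pf4. The third tested marker, Treml1, had a log2 fold change of 0.54 (FDR 0.567). Tubb1 and Clec1b were too low for the test. Mean Tubb1 was 0.220 CPM in BAPN libraries against 1.57 CPM in vehicle libraries, with separated groups, and mean Clec1b was 1.45 against 3.56 CPM, with overlap.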

How the data were processed

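RNA of 8 outflow veins, 1 per rat, was made into stranded libraries depleted of ribosomal RNA. The deposited files hold raw read counts per Ensembl gene, which the authors made from reads handled with bcl2fastq 2.17, Trim Galore and STAR, as the submitters' processing notes name them. The genome build, the counting tool and its strand setting are not given in the sources used here, and reads of overlapping genes may be shared. The deposited counts were tested as they stand, with TMM scaling, by edgeR's quasi-likelihood test (edgeR 4.0.16, R 4.3.3) without covariates, after leaving out genes with a DESeq2 base mean under 100, as in the study's methods, and with Benjamini-Hochberg adjustment over 11682 genes. Standard errors came from limma-voom (limma 3.58.1), and DESeq2 1.42.0 was an alternative. Likeness between profiles used log2 CPM with a prior count of 2.

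The 9 genes and all lists (4 of pathway genes and 10 of cell type markers) were chosen with earlier results of these data known. Named pathway genes were those called plus Plg, Serpinf2, Serpinb2, Anxa2, F2r, Vwf, Tfpi2, Pros1, F2 and F10, and for each member the 1 gene with the nearest profile. F9, F13b, Fga, Fgb, Mrc2 and Mcfd2 fall outside this rule and were named after their values were seen. Marker genes were named to show their lists. A listed pathway gene is not reported here, and it was kept in the fit over all genes. Other scalings, filters, tests, sex, females alone, a block for the replicate number, thinned libraries and leaving out each rat were the alternatives. Each library is 1 animal, and the p-values of the fits set the difference between the groups against the spread between these animals. No 2 libraries of a group agreed within sampling noise (chi-square per degree of freedom 68.6 to 321). On simulated counts for this comparison 165 of 200 genes changed by 1.5 on the log2 scale were recovered among 11682, with 6 false calls. The called members differed by less (-0.95 for Thbd and -0.87 for F3), and recovery of changes of that size was not simulated. Floors of 3 counts cover counting error only.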

Additional observations from a re-analysis of the deposited data

Results flagged for a closer look

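Of 48 groups of 4 libraries examined, 3 had 1 library whose gap to its nearest neighbor, as a share of the group's range, was above Dixon's critical value. Chance gives about 1 in 20 groups. For F8, BAPN 3 (58.8 CPM) was the lowest of its group, with a gap of 0.943 of the range. For Tfpi2, BAPN 4 (10.4 CPM) was the lowest, with a gap of 0.87. For the log2 ratio of F3 over Tfpi, BAPN 4 was the highest of its group (a ratio of 2.43), with a gap of 0.893.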

How the results depend on the processing

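The count of genes called was 1957, and it was 3202 with DESeq2, 930 with sex as a covariate, 89 among females alone and 397 to 2215 when 1 rat was left out (397 for Vehicle 1, 745 for BAPN 3, 856 for BAPN 4, 963 for Vehicle 4, 1210 for Vehicle 3 and 1224 for BAPN 2). Of the 9 members, 2 were called, 1 (Thbd) with filterByExpr, with no filter, with limma-voom and with thinned libraries, and 0 with sex as a covariate and among females alone. Leaving out 1 rat gave 0 to 3, with 0 without BAPN 3, BAPN 4, Vehicle 1 or Vehicle 3, 1 without BAPN 1 or BAPN 2 and 3 without Vehicle 2. A block for the shared numbers (replicate block) left 556 genes and 0 members called (Thbd FDR 0.0737, F3 FDR 0.13), and it also ended the calls of Anxa2 (FDR 0.0844), Vtn (0.0591), F10 (0.0609), Vwf (0.0718), Tfpi2 (0.0543) and Anxa5 (0.125). The numbers were not taken as a pairing, since same-numbered libraries had correlations of 0.094, -0.26, 0.27 and -0.14 between their deviations from the group means. Among females alone the sign turned for Plau (-0.32), Serpine2 (-0.36), F13a1 (-0.64), Tfpi (0.24) and Pros1 (0.06), none of them called. The 9 called pathway genes kept their direction among females alone and missed the threshold there (FDR 0.0504 for Vwf to 0.287 for Anxa5). The sign also turned without BAPN 4 for Plau (-0.09), Serpine2 (-0.09) and F13a1 (-0.24), without Vehicle 3 for F13a1 (-0.12), and without Vehicle 4 for Tfpi (0.05) and Pros1 (0.01). Over the omissions of 1 rat the log2 fold change spanned -0.09 to 0.26 for Plau, -0.09 to 0.44 for Serpine2, -0.24 to 0.38 for F13a1, -0.27 to 0.05 for Tfpi and -0.39 to 0.01 for Pros1. The cause was not tested. With 4 rats a group and depth that differed between the groups, a member that missed the threshold is not shown to be unaltered.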
